A study of Mus musculus with 9 samples.

Results

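Of the 13164 BAP1 binding sites (peaks) listed for the mouse B cell precursor line Ba/F3, 826 lay at internal alternative promoters. This was a share of 6.27% (95% Wilson interval 5.87 to 6.70), and the peaks fell in 669 protein-coding genes. To be counted, a peak needed its nearest transcription start site (TSS) of a protein-coding gene at most 1 kb from the peak middle and more than 1 kb downstream of the gene's most upstream TSS. The middle also had to be more than 1 kb from the most upstream TSS of every protein-coding gene. Only positions on the mm9 genome and the GENCODE M1 annotation chose the peaks. Internal thus means only downstream of the outermost annotated start, and the bound TSS can be where most transcripts of a gene start. A median of 42.9% of a gene's annotated transcripts started within 1 kb of the bound TSS (quartiles 25% and 57.1%, highest 90%).

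Many mammalian genes have more than one promoter. An internal promoter can leave the protein unchanged and replace only its leader, or it can start the protein at another residue, and the choice of promoter often differs between tissues. BAP1 is the catalytic subunit of a complex that removes a ubiquitin from histone H2A (the mark H2AK119ub, placed by Polycomb complexes), and it is found at the promoters of many genes.

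The study mapped BAP1 by ChIP-Seq to find the regions it binds directly in B cell precursors. Wild type Ba/F3 cells were precipitated with an anti-BAP1 antibody, and Ba/F3 cells that stably express triple-FLAG-tagged BAP1 and were kept in puromycin were precipitated with anti-FLAG M2. Both lines grew with IL-3 from conditioned medium, both were sequenced once, and the list joins the 2 samples. It gives no height, score or sample of origin, so depth is unknown, no value has a replicate error, and the intervals and tests below cover counting error within 1 list. The 3 H2AK119ub samples and the 4 inputs of the series were not analysed here. Peaks show where BAP1 was recovered and not which TSS was transcribed, so use of these promoters in Ba/F3 cells was not measured.

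The sequences below show what such sites look like. They are read on the sense strand of the gene, from the upstream edge of the 200 bp peak to its other edge or to at most 30 bases past the internal TSS. Capitals mark a match to 1 of the 14 motifs searched, in either orientation.

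The first 6 belong to hematopoietic regulators and are shown because they include a CpG-poor site, CpG-rich sites, and sites with and without a motif. Gata1 (chrX:7545007-7545170, minus strand) and Lmo2 (chr2:103809544-103809714, plus strand) held no motif. Gata2 (chr6:88148488-88148687, plus) held 2 NFY motifs, and Ets1 (chr9:32503461-32503656, plus), Runx3 (chr4:134708260-134708440, plus) and Ldb1 (chr19:46114082-46114258, minus) held SP/KLF motifs.
Gata1: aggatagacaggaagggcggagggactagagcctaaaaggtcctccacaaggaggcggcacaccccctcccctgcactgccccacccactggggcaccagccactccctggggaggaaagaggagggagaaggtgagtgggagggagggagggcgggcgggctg
Lmo2: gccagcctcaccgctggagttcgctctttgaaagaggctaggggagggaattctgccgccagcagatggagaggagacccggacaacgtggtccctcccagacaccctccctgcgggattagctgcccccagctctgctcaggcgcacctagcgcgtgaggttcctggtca
Gata2: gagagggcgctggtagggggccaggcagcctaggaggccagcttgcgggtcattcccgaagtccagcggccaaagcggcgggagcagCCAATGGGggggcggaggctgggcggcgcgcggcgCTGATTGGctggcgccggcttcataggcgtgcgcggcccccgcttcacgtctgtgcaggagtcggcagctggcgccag
Ets1: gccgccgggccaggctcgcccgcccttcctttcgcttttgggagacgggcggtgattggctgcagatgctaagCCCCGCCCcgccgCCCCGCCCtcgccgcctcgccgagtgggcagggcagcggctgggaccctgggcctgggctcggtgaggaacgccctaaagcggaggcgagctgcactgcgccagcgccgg
Runx3: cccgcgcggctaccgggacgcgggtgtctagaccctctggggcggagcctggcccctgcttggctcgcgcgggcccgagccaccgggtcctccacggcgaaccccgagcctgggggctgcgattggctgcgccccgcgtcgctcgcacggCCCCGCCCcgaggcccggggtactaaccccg
Ldb1: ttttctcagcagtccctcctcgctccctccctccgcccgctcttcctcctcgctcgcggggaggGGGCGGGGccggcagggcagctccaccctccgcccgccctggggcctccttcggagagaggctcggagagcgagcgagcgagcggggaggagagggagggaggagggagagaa

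The next set shows other motifs, and 2 different promoters of 1 gene. Rara (chr11:98798846-98799041, plus) held an E-box just after its TSS. Plec has an AP-1 motif at one internal promoter (chr15:76036735-76036934, minus) and SP/KLF motifs at another (chr15:76028610-76028806, minus). Cic (chr7:26063345-26063470, plus) held NRF1 and SP/KLF motifs. Arfip1 (chr3:84386588-84386787, minus) held an ETS motif, and Oxr1 (chr15:41662308-41662507, plus) is a site poor in G+C without a motif.
Rara: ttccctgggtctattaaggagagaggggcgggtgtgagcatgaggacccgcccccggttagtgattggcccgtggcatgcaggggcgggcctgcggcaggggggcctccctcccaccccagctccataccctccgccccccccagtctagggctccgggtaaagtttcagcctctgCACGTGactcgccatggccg
Plec, AP-1: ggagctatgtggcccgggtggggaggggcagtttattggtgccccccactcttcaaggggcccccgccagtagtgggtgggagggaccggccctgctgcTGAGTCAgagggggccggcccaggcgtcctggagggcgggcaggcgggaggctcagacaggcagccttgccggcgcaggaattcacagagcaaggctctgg
Plec, SP/KLF: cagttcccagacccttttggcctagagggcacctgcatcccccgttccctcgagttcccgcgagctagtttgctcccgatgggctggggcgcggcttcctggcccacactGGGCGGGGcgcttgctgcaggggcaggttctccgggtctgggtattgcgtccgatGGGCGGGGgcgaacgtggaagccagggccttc
Cic: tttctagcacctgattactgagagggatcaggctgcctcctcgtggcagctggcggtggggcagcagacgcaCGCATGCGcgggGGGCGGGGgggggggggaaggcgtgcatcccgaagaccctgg
Arfip1: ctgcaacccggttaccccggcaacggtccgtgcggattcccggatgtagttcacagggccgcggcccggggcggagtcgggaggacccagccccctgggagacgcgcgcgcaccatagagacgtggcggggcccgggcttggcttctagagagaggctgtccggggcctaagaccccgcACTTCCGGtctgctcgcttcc
Oxr1: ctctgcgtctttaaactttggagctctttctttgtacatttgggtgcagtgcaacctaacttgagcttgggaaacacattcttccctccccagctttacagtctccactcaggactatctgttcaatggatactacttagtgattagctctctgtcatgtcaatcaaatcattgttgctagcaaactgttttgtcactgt

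The selection kept only peaks within 1 kb of the internal TSS and, by its distance from most upstream TSSs, left out some on the upstream side of TSSs 1 to 2 kb downstream. Distances are therefore given as a description. The side of the TSS was among the 38 main tests, but no conclusion is drawn from it because the selection bears on it. The middles lay a median of 28 bp upstream of the internal TSS, with the middle 50% of peaks from 86.5 bp upstream to 13 bp downstream. In 520 of the 826 peaks (63.0%, 59.6 to 66.2) the 200 bp covered the TSS itself, and 708 (85.7%) had their middle within 300 bp of it. For the 8939 peaks at most upstream TSSs, the median was 29 bp upstream of the nearest TSS and the quartiles were 75 bp upstream and 7 bp downstream. The middle was upstream of the TSS in 68.5% of internal and 70.4% of most upstream peaks, or in 60.8% of the latter when their distance was taken to the most upstream TSS.

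**Figure D1:**
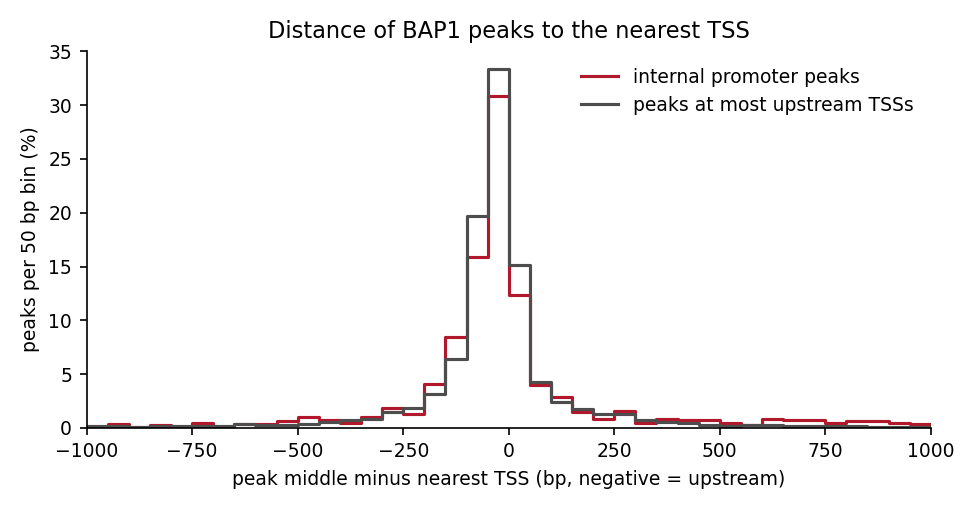
The share of peaks per 50 bp is plotted against the distance of the peak middle to the nearest TSS, in bp, for 826 internal promoter peaks (red) and 8939 peaks at most upstream TSSs (grey). Both lines are highest in the 50 bp just upstream of the TSS, with 30.9% and 33.4% of peaks.

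The bound TSSs lay a median of 7862 bp downstream of the most upstream TSS, with quartiles of 3113 and 22688 bp. In the transcript that starts most upstream, 428 of the bound TSSs (51.8%, 48.4 to 55.2) fell in intron 1, 149 (18%) in intron 2 and 88 (10.7%) in a later intron. A further 98 lay in an exon, 10 of them in exon 1, and 63 lay beyond the end of that transcript, which can be short. These places were not read for internal TSSs without a peak, so the shares cannot be set beside those of all internal TSSs. The transcript at the bound TSS was protein-coding for 634 peaks (76.8%), a processed transcript for 94, an intron-retaining transcript for 67 and a transcript marked for nonsense-mediated decay for 31. The TSS of a noncoding gene was also within 1 kb of 55 peaks (6.66%), and for those the list does not tell which start the peak belongs to. Of the genes named below, these were Hk1, Runx2, Elf2, Zbtb7b, Kdm4c, Sin3a, Srsf1, Epb4.1 and Rps6ka1. The share of CpG-rich peaks was 76.2% (72.7 to 79.3) at protein-coding starts, 59.6% (49.5 to 68.9) at processed transcripts, 64.2% (52.2 to 74.6) at intron-retaining transcripts and 90.3% (75.1 to 96.7) at transcripts marked for decay.

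The members at the limits of the rule were the peaks of Rara, 988 bp upstream of its TSS, and of Nkiras2, 983 bp downstream. Just outside were peaks 1004 bp from a TSS of Gm12216 and 1015 bp from a TSS of Sfpq. By distance between the TSSs, Rcc2 (1001 bp) and Vegfa (1021 bp) were just inside, and 2 peaks at a TSS of Klf10, 998 bp downstream of its most upstream TSS, were just outside.

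Most internal TSSs had no peak. In the annotation, 8542 protein-coding genes had at least 1 internal TSS position more than 1 kb from every most upstream TSS, with TSSs of a gene within 1 kb joined, and there were 17686 such positions. The 669 genes with an internal promoter peak were 7.83% of the 8542. A peak lay within 1 kb of 837 positions (4.73%, 4.43 to 5.06), compared with 4209 of the 8542 most upstream TSSs of the same genes (49.3%). The odds ratio was 0.051 (0.047 to 0.055, two-sided Fisher's exact test, with p-values adjusted by Benjamini-Hochberg over the 38 main tests). Tests within CpG content, at other distances or in other alternatives were adjusted within a separate family for each setting. Families within CpG content were smaller, without the CpG tests. Of the 837 positions, 121 had only peaks that also lie within 1 kb of a most upstream TSS, which leaves 716 (4.05%) with an internal promoter peak as defined above.

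CpG content separated the internal positions with a peak from those without. CpG islands, regions rich in CpG and G+C, mark many mammalian promoters. A stretch of 200 bp was called CpG-rich when its observed over expected CpG ratio was at least 0.6 and its G+C at least 50%. Among CpG-rich internal positions 36.1% had a peak (536 of 1486), and among the others 1.86% (301 of 16200), an odds ratio of 29.8 (25.5 to 34.8, Fisher's exact test). The share was 0.719% (0.539 to 0.958) at CpG ratios under 0.2, 16.1% (14.1 to 18.3) from 0.6 to 0.8, and 56.2% (50.2 to 62.1) at 1.0 and above. Among CpG-rich sites only, internal positions still had a peak less often than most upstream TSSs, 69.9% of which had one (odds ratio 0.24, exact test, adjusted p = 3.43e-119). With 18.2% of the most upstream TSSs that were not CpG-rich carrying a peak, the difference also held there (odds ratio 0.085, adjusted p = 5.49e-261, exact test).

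The type of transcript also separated them. Positions that start a protein-coding transcript had a peak in 9.0% (720 of 8003), and positions that start only other types in 1.21% (117 of 9683), an odds ratio of 8.08 (6.63 to 9.85, Fisher's exact test, adjusted p = 1.75e-138). Within CpG-rich positions these shares were 43.6% and 11.5% (odds ratio 5.95, adjusted p = 5.90e-30, exact test), and within the others 3.26% and 0.825% (odds ratio 4.06, adjusted p = 1.16e-28, exact test). Positions from manual annotation (levels 1 and 2) and from automatic annotation only (level 3) had a peak in 4.68% and 5.18%, a difference that did not pass the test (odds ratio 0.90, 0.73 to 1.11, adjusted p = 0.423, exact test).

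The share with an internal promoter peak fell with distance from the most upstream TSS. It was 9.13% (7.71 to 10.8) at 1 to 2 kb, 5.35% (4.53 to 6.32) at 5 to 10 kb and 1.77% (1.43 to 2.20) beyond 50 kb. The share of CpG-rich positions fell as well, from 22.2% at 1 to 2 kb to 6.42% beyond 50 kb. Of the CpG-rich positions, 43.0% (37.1 to 49.1) had an internal promoter peak at 2 to 5 kb, 44.3% (37.6 to 51.2) at 5 to 10 kb, 32.4% (26.7 to 38.8) at 20 to 50 kb and 16.8% (13 to 21.5) beyond 50 kb. At 1 to 2 kb the value was 28.2% (23.5 to 33.6), and 45.8% (40.3 to 51.5) when peaks within 1 kb of the most upstream TSS were counted too. These shares are given without a test.

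**Figure D2:**
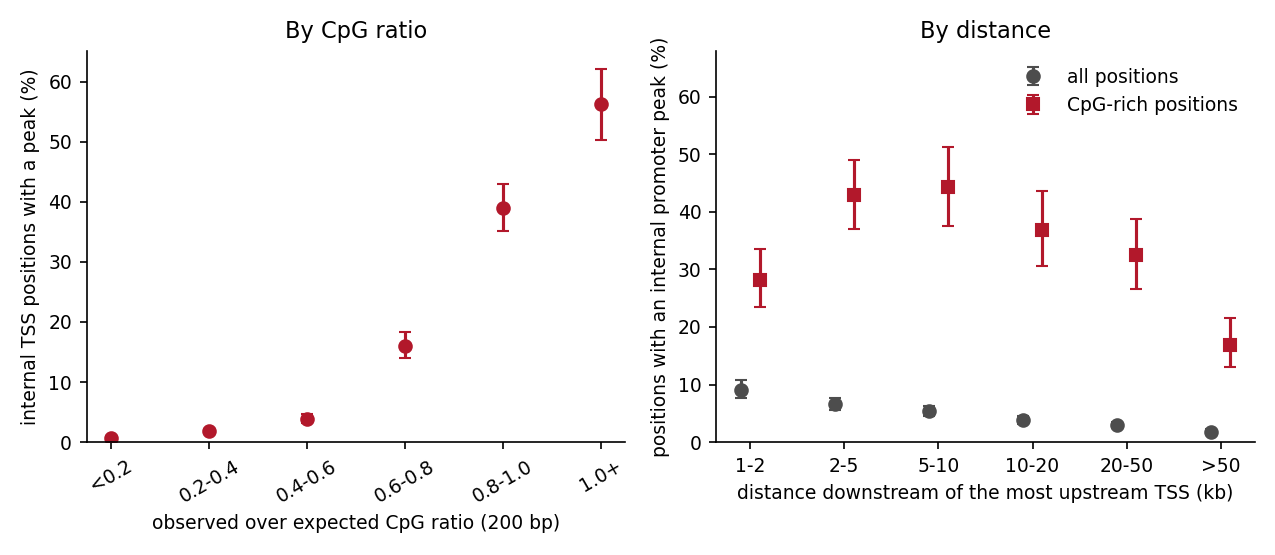
Left, the share of internal TSS positions with a peak within 1 kb, in percent, by observed over expected CpG ratio of the 200 bp around the TSS. Right, the share with an internal promoter peak, in percent, by distance downstream of the most upstream TSS in kb, for all positions (grey) and CpG-rich positions (red). Bars are 95% Wilson intervals. The left panel runs from 0.719% to 56.2%, and in the right panel CpG-rich positions are above all positions in every bin.

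Of the 669 genes, 269 (40.2%, 36.6 to 44.0) also had a peak at the most upstream TSS, and 400 (59.8%) did not. Over all 8542 genes with an internal position, 49.3% (48.2 to 50.3) had a peak at the most upstream TSS. These 2 shares were not tested against each other. Where the most upstream TSS had a peak, it was CpG-rich in 72.1% of the genes (194 of 269, 66.5 to 77.1). Where it had none, it was CpG-rich in 23.3% (93 of 400, 19.4 to 27.6). The internal peaks themselves were CpG-rich in 70.9% (65.7 to 75.5) and 75.8% (71.9 to 79.3), respectively. A protein-coding transcript began within 1 kb of the most upstream TSS in 87.4% of the genes with a peak there and 86.0% of those without.

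Whether a peak at the most upstream TSS goes with one at an internal TSS depended on which positions were compared. Over all positions, 4.59% had a peak in genes with one at the most upstream TSS and 4.88% in genes without (odds ratio 0.94, 0.82 to 1.08, Fisher's exact test, adjusted p = 0.438). Over CpG-rich positions the shares were 48.1% (249 of 518) and 29.6% (287 of 968), with an odds ratio of 2.20 (adjusted p = 4.31e-11, exact test). Some of these positions share a peak with the nearby most upstream TSS. For CpG-rich positions more than 2 kb from every most upstream TSS the shares were 39.0% and 30.2% (odds ratio 1.48, adjusted p = 0.0176, exact test). For all positions at that distance the direction was opposite, 2.76% and 4.41% (odds ratio 0.61, adjusted p = 5.72e-08, exact test). The comparison within CpG content and that by distance were chosen after seeing the data.

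Compared with peaks at most upstream TSSs, internal promoter peaks were less often CpG-rich. The shares were 73.8% (610 of 826) and 88.8% (7942 of 8939), an odds ratio of 0.35 (0.30 to 0.42, Fisher's exact test, adjusted p = 1.24e-28). Peaks in gene bodies more than 1 kb from every annotated TSS were CpG-rich in 19.0% (213 of 1123), and the odds ratio of internal promoter peaks against these was 12.1 (9.73 to 15.0, adjusted p = 2.37e-134, exact test). The median CpG ratio was 0.820 in internal promoter peaks, 0.882 in peaks at most upstream TSSs and 0.288 in gene body peaks, and the median G+C was 68%, 67% and 55%. Internal promoter peaks that were CpG-rich had their middle within 100 bp of the TSS in 69.0% (65.2 to 72.6), and the 216 others in 46.3% (39.8 to 53.0).

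The motifs of factors that bind many housekeeping promoters were compared next. They were searched as CCGGAAGT for ETS factors, CGCATGCG for NRF1, CCCCGCCC for SP/KLF factors, CCAATNNG for NFY, AANATGGCG for YY1, TGACGTCA for CREB/ATF, TTTCCCGC for E2F, CACGTG for the E-box of MYC and USF, and ACTACAANT for ZNF143/THAP11. The motifs of factors with roles in blood cells or at enhancers were GTAAACA for FOX, TGTGGTT for RUNX, GAGGAAGT for PU.1, AGATAAG for GATA and TGANTCA for AP-1 factors. Both strands of the 200 bp were read, and the PU.1 and ETS motifs overlap in 6 letters. At least 1 motif was found in all but 274 of the 826 peaks (33.2%).

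Against peaks at most upstream TSSs, 3 of the 14 motifs differed. The ETS motif was in 5.21% of internal promoter peaks and 10.1% of peaks at most upstream TSSs (odds ratio 0.49, 0.36 to 0.67, Fisher's exact test, adjusted p = 5.36e-06). The NFY motif was in 12.0% and 16.5% (odds ratio 0.69, 0.56 to 0.86, adjusted p = 0.00159, exact test). The AP-1 motif was in 4.84% and 2.07% (odds ratio 2.41, 1.70 to 3.42, adjusted p = 1.61e-05, exact test). Among CpG-rich peaks only, the AP-1 shares were 2.62% and 1.80%, which did not pass the test (odds ratio 1.47, adjusted p = 0.427, exact test), while ETS (6.07% and 10.8%, adjusted p = 0.00126) and NFY (11.5% and 15.6%, adjusted p = 0.0300) did. Among peaks that were not CpG-rich, AP-1 was in 11.1% of internal promoter peaks (24 of 216) and 4.21% of peaks at most upstream TSSs (42 of 997), with an odds ratio of 2.84 (adjusted p = 0.00137, exact test). The SP/KLF motif was the most frequent, in 36.4% and 35.7%, and the NRF1 motif was in 4.48% and 4.30%.

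The 216 internal promoter peaks that were not CpG-rich are described by their motifs, as shares without a test against the CpG-rich ones. The SP/KLF motif was the most frequent in both, with 25% (19.7 to 31.2) and 40.5% (36.7 to 44.4). Besides AP-1, the PU.1 motif, of an ETS factor of myeloid and B cells, was in 6.48% of them (14 of 216, 3.90 to 10.6), in 1.15% of the CpG-rich ones and in 2.91% of peaks at most upstream TSSs that were not CpG-rich. Gene body peaks that were not CpG-rich had close shares of AP-1 (12.1%, 10.1 to 14.4) and PU.1 (4.73%, 3.53 to 6.30). The NFY motif, the CCAAT box, was in 13.4% of the 216 and in 23.6% of those at most upstream TSSs (odds ratio 0.50, Fisher's exact test, adjusted p = 0.00439). The peaks of Gata1, Lmo2, Hk1 and Oxr1 and all 3 of Rara were in this group.

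Against gene body peaks, 9 motifs were more frequent in internal promoter peaks and 3 less frequent. NRF1 was in 4.48% and 0.534% (odds ratio 8.73, 3.67 to 20.8, Fisher's exact test, adjusted p = 1.69e-08), and YY1 in 5.93% and 0.890% (odds ratio 7.02, adjusted p = 7.05e-10, exact test). SP/KLF was in 36.4% and 15.6% (odds ratio 3.11, adjusted p = 4.00e-25, exact test). AP-1 was in 4.84% and 10.2% (odds ratio 0.45, adjusted p = 3.78e-05, exact test), and FOX and RUNX were also lower, with 1.57% against 4.36% and 2.06% against 4.54%. Within classes of CpG content some of these differences were gone or turned. Among CpG-rich peaks AP-1 was in 2.62% of internal promoter and 1.88% of gene body peaks, and among the others in 11.1% and 12.1%. RUNX was in 0.984% and 0.939% of CpG-rich peaks and in 5.09% and 5.38% of the others. SP/KLF was in 40.5% (36.7 to 44.4) and 48.4% (41.7 to 55) of CpG-rich peaks, the opposite direction, and in 25% and 7.91% of the others. ETS kept its direction, with 6.07% and 1.88% of CpG-rich peaks and 2.78% and 1.43% of the others. NFY was in 11.5% and 12.2% of CpG-rich peaks and 13.4% and 7.25% of the others. These shares were not tested, and NRF1, YY1 and FOX were not split this way. A motif match describes the sequence and does not show that the factor was bound.

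Another peak lay within 5 kb of 47.7% of internal promoter peaks, 42.5% of peaks at most upstream TSSs (odds ratio 1.23, 1.07 to 1.42, Fisher's exact test, adjusted p = 0.00931) and 28.0% of gene body peaks (odds ratio 2.34, adjusted p = 4.52e-18, exact test). For 269 internal promoter peaks (32.6%) the neighbor was another one in the same gene, and 137 (16.6%) had a peak at the gene's own most upstream TSS that close. Among CpG-rich peaks, 48.7% of internal and 42.4% of most upstream peaks had a neighbor (odds ratio 1.29, Fisher's exact test, adjusted p = 0.0150). Among peaks that were not CpG-rich the shares were 44.9% and 43.7%. The latter difference did not pass the test (odds ratio 1.05, Fisher's exact test, adjusted p = 0.928). Neighbors include overlapping peaks, and this comparison was not repeated with merged peaks.

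**Figure D3:**
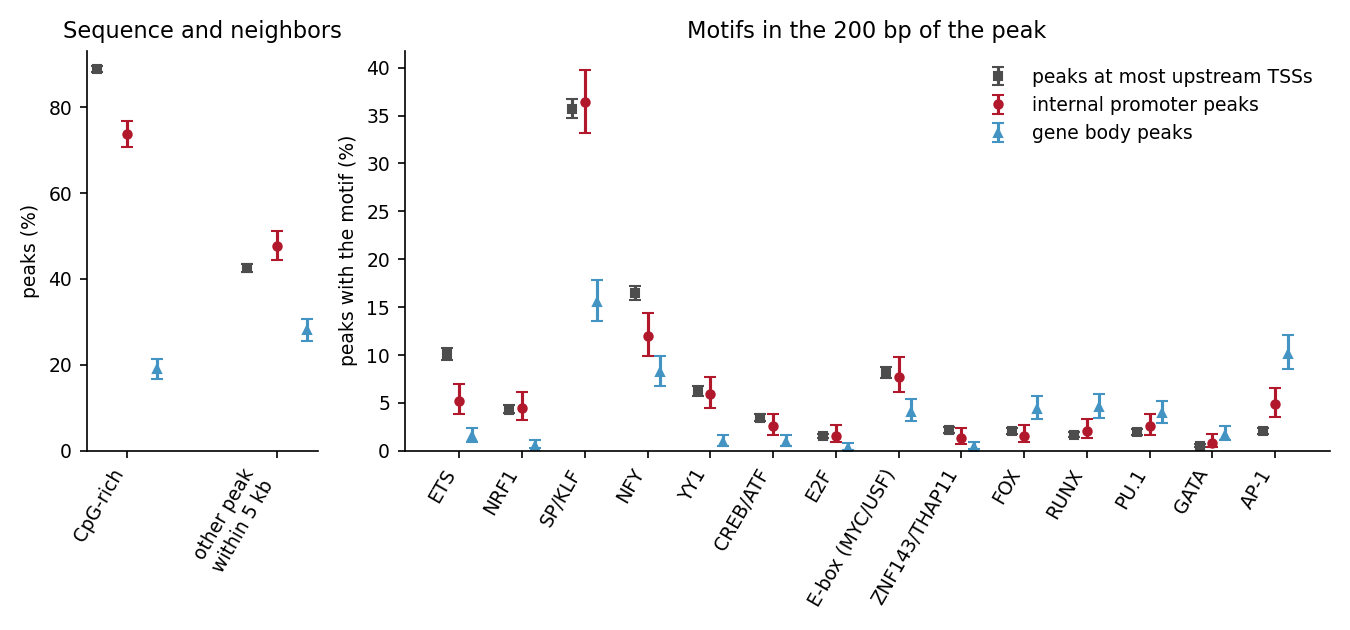
Shares in percent, with 95% Wilson intervals, of CpG-rich peaks and peaks with a neighbor within 5 kb (left) and of peaks with each of 14 motifs (right). Internal promoter peaks (red, 826) lie between peaks at most upstream TSSs (grey, 8939) and gene body peaks (blue, 1123) for CpG content, ETS, NFY and AP-1.

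The effect on the protein was read from the annotation by comparing the start codon of the bound transcript with that of a coding transcript that starts more than 1 kb farther upstream. Where several did, the one with the longest coding sequence was taken. For 270 peaks (32.7%, 29.6 to 36.0) both used the same start codon. The annotated proteins then had equal length for 111 of the 270 (41.1%) and unequal length for the others. Examples are Bcor, with 125 residues at the bound TSS against 1707 upstream, and Stag1, with 1258 against 50. Whether the annotated coding sequences are complete was not checked, so unequal length does not show a different protein. For 207 (25.1%, 22.2 to 28.1) the start codon lay outside the coding sequence of the upstream form, which gives another N-terminus. For 68 (8.23%, 6.55 to 10.3) it lay inside that sequence and in frame, with a median of 98.5 residues of the upstream form before it (quartiles 37.8 and 238.5), or 18.7% of that form. The forms differed by just those residues for 37 of the 68, and the others differed elsewhere as well. A further 76 peaks had no coding transcript farther upstream, and 205 were at transcripts without an annotated start codon. Start codons were not compared for internal TSSs without a peak, so these shares describe the bound TSSs only.

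Most of the genes, 534 of 669 (79.8%), had 1 internal promoter peak, 117 had 2, 16 had 3 and 2 had more. Plec, which encodes plectin, a linker of intermediate filaments, had 6 peaks at 5 of its 8 internal positions. Its bound TSSs lay 24321 to 36864 bp downstream of the most upstream TSS, which had a peak as well. Of these peaks, 2 of 6 were CpG-rich, and at 4 of them the start codon lay outside the coding sequence of the upstream form, while in the other two it was in frame, 305 and 203 residues into that form. Cic, a transcriptional repressor downstream of receptor tyrosine kinases, had 4 peaks at 3 of 9 positions in intron 2, 10718 to 15106 bp downstream. Rara, the retinoic acid receptor alpha, had 3 peaks at 3 of 4 positions, and none at its most upstream TSS. The Rara peaks lay 67, 824 and 988 bp upstream of their TSSs, and none of them was CpG-rich. Zbtb7b, a regulator of T helper lineage choice, had a peak at all 3 of its positions, and 2 of its peaks were internal promoter peaks.

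The bound TSSs farthest from the most upstream one were in Arfip1 (1304891 bp), Camta1 (571810 bp), Arhgap26 (391611 bp), Oxr1 (383476 bp) and Rere (287942 bp). For Arfip1 and Oxr1 the most upstream TSS had no peak, and for the other 3 genes it did. Of the annotated coding transcripts of Arfip1 that start more than 1 kb farther upstream, the longest encodes 252 residues. The bound one encodes 373.

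The genes were then grouped by function. Of all genes with an internal position, 7.83% (669 of 8542) had an internal promoter peak, and this is the share each list is set beside. The share rose with the number of internal positions, from 4.80% of genes with 1 to 12.8% of genes with 3 or more. All genes with an internal position had a mean of 2.07 of them. For a peak at the most upstream TSS, the shares to set beside the lists are 40.2% of the 669 genes and 49.3% of all 8542. A named gene without a peak there is therefore like many of all such genes. The lists are compared with no test.

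Among genes known for alternative promoters, 20 of 75 with an internal position had a peak there (26.7%, 18 to 37.6), with a mean of 3.36 positions a gene. Of the 20, 7 also had a peak at the most upstream TSS. Hematopoietic transcription factors followed, with 14 of 63 (22.2%, 13.7 to 33.9) and a mean of 2.22 positions, close to that of all genes, and 5 of the 14 had a peak at the most upstream TSS. These lists share 7 of the genes, and 27 genes are in either.

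Gata1, the master regulator of erythroid and mast cell genes, had its only internal promoter peak 34 bp upstream of a TSS that lies 10161 bp downstream of the most upstream one. That TSS starts the transcript for the 413-residue protein, the peak had a CpG ratio of 0.193, and no peak lay at the most upstream TSS. Gata2, a factor of hematopoietic progenitors, had a CpG-rich peak 71 bp upstream of a TSS 4773 bp downstream, in intron 1, with the same start codon for 480 residues, and a peak at its most upstream TSS. Of these related genes, 1 had a peak at both starts and the other at the internal start.

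Lmo2 and Ldb1 encode partners in a complex with GATA factors. Lmo2 had a peak 42 bp upstream of a TSS that lies 11542 bp downstream, within 1 kb of which 7 of its 10 transcripts start, and none at the most upstream TSS. Ldb1 had a peak 47 bp upstream of a TSS 5593 bp downstream, whose protein lacks 36 residues of the 411 in the upstream form, and a second peak at the most upstream TSS.

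The RUNX genes have a distal and a proximal promoter that give different N-termini. Runx3 had a peak 52 bp upstream of a TSS 31844 bp downstream, with a start codon outside the coding sequence of the upstream form, and a peak at the most upstream TSS too. Runx2 had one 104 bp upstream of a TSS 78621 bp downstream, within 1 kb of which 7 of 14 transcripts start, and none at its most upstream TSS. The transcript at that TSS is marked for nonsense-mediated decay and has no annotated start codon, so its N-terminus was not compared.

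Among the ETS factors, Ets1 had a peak at the TSS of its 440-residue form, 59821 bp downstream of the most upstream TSS, which had none. Elf4 had a peak 8963 bp downstream and also none at the most upstream TSS. Elf2 had peaks at both starts, which lie 63234 bp apart, the internal one next to the TSS of a noncoding gene. The internal start of Elf2 belongs to a transcript marked for nonsense-mediated decay, without an annotated start codon. Nfatc1 and Nfatc2, calcium-regulated factors of lymphocytes, had peaks 44 and 28 bp upstream of TSSs 4898 and 11292 bp downstream, with no peak at the most upstream TSS of either. Rbpj, the DNA-binding effector of Notch signaling, had 3 peaks, at TSSs 34436 and 34795 bp downstream, all CpG-rich, and none at the most upstream TSS. Foxp1 had a peak 1 bp from a TSS 238219 bp downstream. Pou2f2, a B cell factor, had one 267 bp downstream of a TSS that lies in exon 4 of the upstream transcript. That TSS starts a transcript without an annotated start codon, and the most upstream TSS, 11630 bp away, had a peak too.

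Nuclear receptors formed another group. Besides Rara, the retinoid receptor gene Rarg had 3 peaks, 11017 and 13928 bp downstream, and a peak at its most upstream TSS. Rxra, the shared partner of these receptors, had a peak 63761 bp downstream, at a transcript with no start codon. Nr3c1, the glucocorticoid receptor, had a peak 20 bp upstream of a TSS only 1455 bp downstream, in a stretch with 77.5% G+C. Neither Rxra nor Nr3c1 had a peak at the most upstream TSS.

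The remaining genes known for alternative promoters included Gnas, the alpha subunit of the stimulatory G protein, which is imprinted and has several first exons. Its peaks lay 43250 and 45686 bp downstream, the second 3 bp from the TSS of the 380-residue form, and its most upstream TSS had no peak. Hk1, which catalyzes the first step of glycolysis, had a peak 39731 bp downstream, at the TSS of a 941-residue form. Adar, an RNA editing enzyme, was bound 15726 bp downstream and at the most upstream TSS. Rassf1, a tumor suppressor gene, had 2 overlapping peaks at a TSS 3101 bp downstream that starts a 270-residue form against 344 residues upstream, and a peak at the most upstream TSS. Tpm1, a tropomyosin gene, had a peak at the TSS of a 248-residue form, 5499 bp downstream. Lck, Pde4a and Nfix had peaks 17182, 18389 and 92628 bp downstream, and in Tpm1 and these 3 genes the most upstream TSS had no peak. The bound TSS in Lck starts an intron-retaining transcript and that in Nfix a processed transcript, neither with an annotated start codon. The TSSs 43250 bp downstream in Gnas and 13928 bp downstream in Rarg also start processed transcripts without one.

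**Figure D4:**
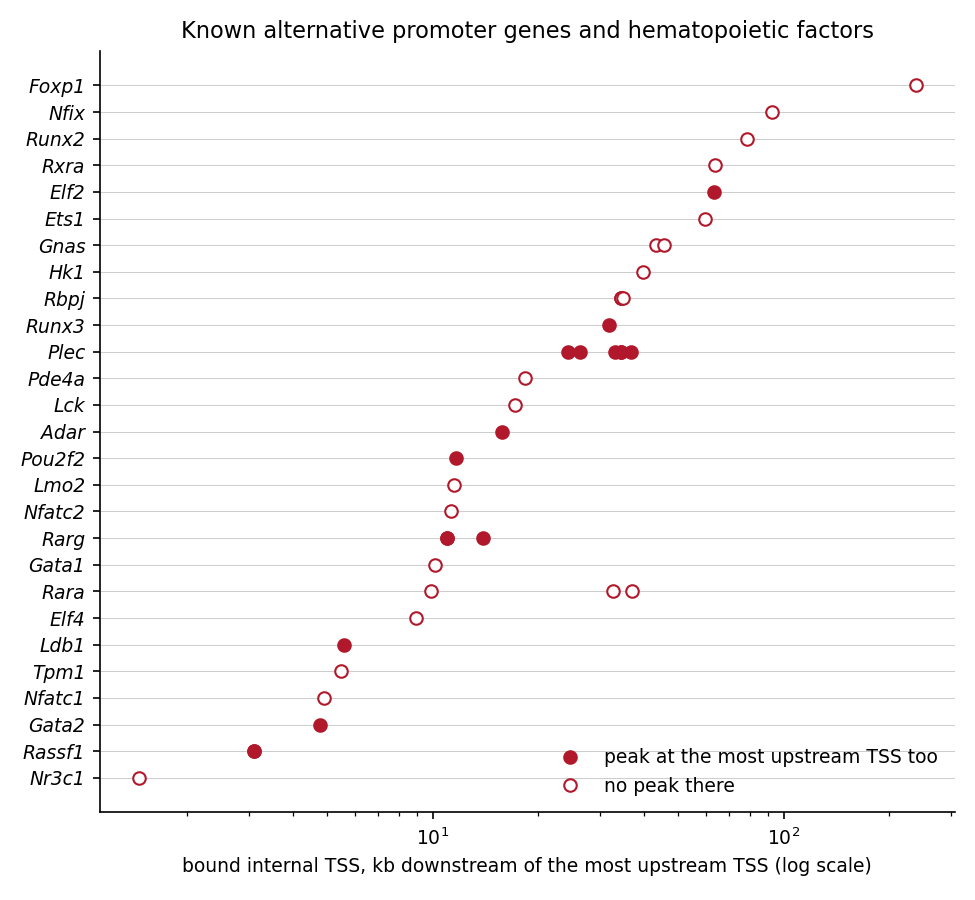
Distance in kb (log scale) from the most upstream TSS to each bound internal TSS in 27 genes of the lists of known alternative promoters and hematopoietic transcription factors. Filled points mark genes with a peak at the most upstream TSS too and open points genes without. The points run from 1455 bp in Nr3c1 to 238219 bp in Foxp1.

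Cytoskeleton and adhesion genes had a peak in 17 of 84 (20.2%, 13 to 30.0), but also the highest mean number of positions, 3.69. Coro1a, an actin regulator of leukocytes, had a peak 11 bp upstream of a TSS 2971 bp downstream, and Tpm3 and Myo18a had peaks 13 bp downstream and 21 bp upstream of theirs. In these 3 genes the most upstream TSS had no peak. Lmna, which encodes the A-type lamins, had 3 internal promoter peaks and a peak at the most upstream TSS. The closest lay 14 bp from the TSS of a processed transcript without an annotated start codon. The other genes were Plec and Tpm1, described above, and Add3, Epb4.1, Flna, Lasp1, Limk2, Mapre2, Myo1c, Pxn and the septin genes Sept6, Sept7 and Sept9, and 7 of the 17 had a peak at the most upstream TSS.

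Chromatin and Polycomb genes had one in 18 of 116 (15.5%, 10.0 to 23.2), with a mean of 2.97 positions. Aebp2 (PRC2), Pcgf5 and Bcor (both of noncanonical PRC1) and Kdm4c, a histone demethylase, had peaks within 30 bp of internal TSSs and none at the most upstream TSS. The TSS in Bcor lay 31955 bp downstream and used the same start codon, as did that in Pcgf5, 30681 bp downstream. The TSS in Aebp2 lay only 1050 bp downstream, just past the 1 kb limit of the rule. The other 14 genes were Jarid2, Phf19 and Phc2, of Polycomb complexes, Kdm2a and Kdm2b, which bind unmethylated CpG, Foxk2, a forkhead factor known to recruit BAP1, and Arid1a, Baz2a, Brd2, Brd3, Chd2, Phf21a, Sin3a and Smarca2.

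RNA processing and translation genes had one in 10 of 61 (16.4%, 9.16 to 27.6), with a mean of 2.85 positions. Eif4g1, the scaffold of the cap-binding complex, had a peak 4 bp from a TSS 4410 bp downstream, with 15 of its 23 transcripts starting within 1 kb, and no coding transcript started farther upstream. Larp4 and Mbnl1 also had no peak at the most upstream TSS, and Hnrnpl did. The others were Adar, Caprin1, Hnrnpu, Rbms1, Srsf1 and Srsf11.

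Signaling genes had one in 14 of 133 (10.5%, 6.37 to 16.9). Arhgef7, an exchange factor for Rac, had a peak at a TSS 30249 bp downstream whose start codon lies 157 residues into the 862 of the upstream form, and the bound form is annotated with 646. Prkar1a, a regulatory subunit of protein kinase A, had a peak 1 bp from a TSS 1516 bp downstream with the same start codon, and Arhgap4 had peaks at both starts, which lie 10540 bp apart. The others were Gnas and Pde4a, described above, and Arhgap26, Arhgef1, Csnk1e, Ctnnb1, Grb2, Rasgrp2, Rps6ka1, Rps6ka3 and Stk4.

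Cell cycle and DNA replication genes had one in 7 of 71 (9.86%, 4.86 to 19.0), an interval that includes the share of all genes, as does that of signaling genes. Stag1, a cohesin subunit, had a peak at a TSS 45650 bp downstream, with 11 of 17 transcripts starting within 1 kb, and Cdkn1a, the p21 inhibitor, had one 101 bp upstream of a TSS 2793 bp downstream. Neither had a peak at the most upstream TSS. Ccnd3, cyclin D3, and Lin54, a subunit of the cell cycle repressor DREAM, were bound at the most upstream TSS too, with internal TSSs 88416 and 2006 bp downstream. E2f3, Numa1 and Stag2 were the others.

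**Figure D5:**
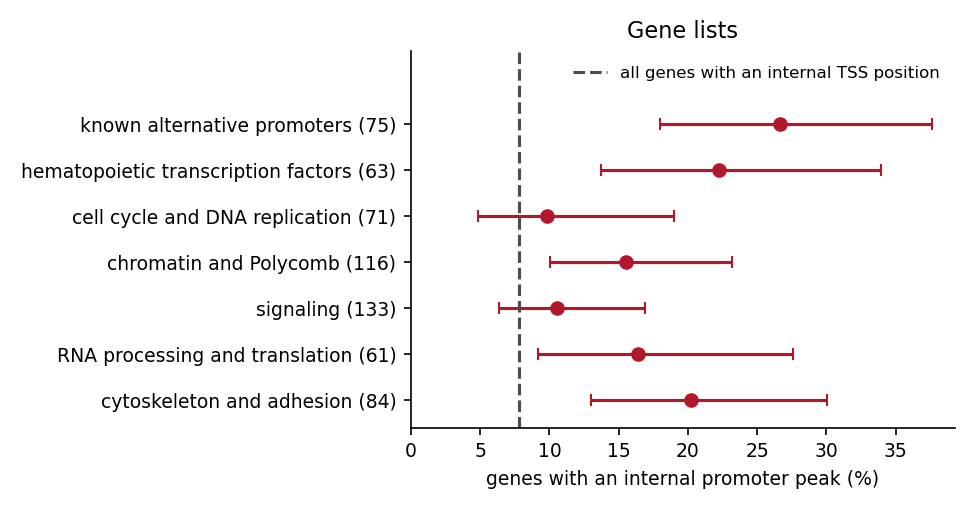
The share of genes with an internal promoter peak, in percent with 95% Wilson intervals, for 7 gene lists, with the number of genes that have an internal TSS position in brackets. The dashed line is the share over all such genes, 7.83%, and it lies within the intervals of the cell cycle and signaling lists and below the intervals of the other 5. It does not account for the number of internal positions per gene. The share of genes with 3 or more positions, 12.8%, also lies within the intervals of the chromatin and RNA processing lists. It lies below those of the known alternative promoter, hematopoietic and cytoskeleton lists.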

How the data were processed

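Reads were mapped to mm9 with Bowtie 1.0.0 and peaks called with MACS 1.4.2 against input, per the submitters' processing notes. The caller's threshold and the rule that joined both samples are not given in the sources used here. The deposited table holds the start, end and name of each peak. The number of per-sample columns not matched to a sample was 0. All 13164 peaks lie within the chromosomes of NCBIM37 (mm9), the build of GENCODE M1. The peak middle was its start plus 100.

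Two-sided Fisher's exact tests compared shares between classes. The 38 p-values of the main setting were adjusted by Benjamini-Hochberg (threshold 0.05), and those of each alternative setting separately, so no adjustment spans all settings. Intervals are 95% Wilson or log odds intervals. Tools were Python 3.11.15, SciPy 1.17.1, pysam 0.24.0 and matplotlib 3.10.9. Peaks of 1 gene are not independent, nor are its internal and most upstream TSSs, and the tests did not pair them by gene. Of transcripts with the same TSS, a protein-coding one was taken first. Scripts were tested on simulated data.

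The peaks and gene lists were chosen with earlier results of these data known, and the lists written from general knowledge. Named genes are all bound ones of the lists of known alternative promoters and hematopoietic factors, the 4 of each other list with the peak nearest to the TSS, the 5 with the most distant TSS, the 4 with most bound positions, and those at the limits. Other windows, offsets, transcript sets and merged peaks were tried. A planned share of repeats was not computed, because the genome used here does not mark repeats.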

Additional observations from a re-analysis of the deposited data

How the results depend on the processing

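Of 88 comparisons with an alternative, 71 kept their direction and side of the threshold, or stayed near their value. The number of internal promoter peaks moved to 515 when TSSs had to lie more than 5 kb downstream. With a window of 500 bp, 34.0% of the genes also had a peak at the most upstream TSS. The CpG difference from peaks at most upstream TSSs, the gap between internal and most upstream TSSs, and the splits by CpG content and by transcript type kept their direction and passed the test in every alternative run. With only coding transcripts, the split by transcript type could not be made.

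The odds ratio for a peak at an internal TSS by a peak at the most upstream TSS (0.94) was the least stable. It was 0.56 with a window of 500 bp, 0.61 more than 5 kb downstream and 0.61 for positions over 2 kb from every most upstream TSS, and 0.66 with peaks near those left out, all past the threshold. It turned to 1.31 with only coding transcripts, to 2.20 in CpG-rich positions and 1.48 in those over 2 kb away, and to 1.08 in the others. The cause was not tested. For the side of the TSS (0.91), on which the selection itself bears, a window of 500 bp gave 1.02, the most upstream TSS as reference 1.4, and peaks that were not CpG-rich 0.64. Over 400 bp, 5 of the 14 motifs differed in place of 3. AP-1 in CpG-rich peaks, and ETS and the neighbors in the others, no longer passed. The added alternatives, by CpG content, distance and reference TSS, were chosen after seeing the data.

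The list has no scores and no replicates, so no sample was left out in turn, and depth is unknown. No analysis paired by sample was possible because the list has no columns of single samples. The comparison of internal TSSs with the most upstream TSSs of the same genes was not paired by gene.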
